A study of Mus musculus with 5 samples.

Results

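The CXC chemokine genes of mouse chromosome 5 were examined for mJunB and H3K27ac peaks in muscle stem cells (MuSCs). The genes lie in 2 clusters. The first holds Cxcl5, Ppbp, Pf4, Cxcl3, Cxcl15, Cxcl1 and Cxcl2, and the second holds Cxcl9, Cxcl10 and Cxcl11. The members were these 10 genes, of 22020 protein-coding genes and polymorphic pseudogenes in the GENCODE M21 annotation. Every peak within 50 kb of any of their transcription start sites (TSSs) was taken. Together these were 17 mJunB peaks, which merged into 9 of the 18879 mJunB regions of the series, and 17 H3K27ac peaks. Positions are given on mm10, counted from 1.

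Binding was mapped by CUT&RUN-seq, in which an antibody on permeabilised cells guides a nuclease that cuts out the DNA beside the antigen. The MuSCs were freshly isolated, and a JunB antibody was used for 3 libraries from the group labelled Young and 1 from the group labelled Aged. A further library was made with an antibody to H3K27ac, an acetylated histone found at active promoters and enhancers. No genotype, strain, sex or age in months is given in the labels, and the H3K27ac library has no age group. The methods of the study call the H3K27ac data its own CUT&RUN-seq but also name an outside epigenome mapping project as their source, so their origin is not settled. A text on the whole series speaks of DMSO and MVC treated mice in place of young and aged ones, and the sample labels were followed. Peak names in the list of young replicate 1 carry the letters gfp, which the labels do not explain. The aged JunB list held 14123 peaks, those of young replicates 1, 2 and 3 held 9534, 4884 and 3863, and the H3K27ac list held 39865. The weakest peak had a −log10 p of 3.01 in the lists of young replicate 1 and the aged library but of 5.33 and 5.22 in those of young replicates 2 and 3, so the lists reached down to different strengths. Read counts are not part of the lists, and the depth of each peak is therefore unknown. With 1 aged library no test between ages was possible, and the age comparisons are descriptions of these libraries.

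Chemokines are small secreted proteins that direct the movement of leukocytes, and those of the CXC family are named after the spacing of their leading cysteines. Cxcl1, Cxcl2, Cxcl3 and Cxcl5 attract neutrophils through the receptor Cxcr2. Ppbp and Pf4 are stored in platelet granules, and Cxcl15 is a neutrophil attractant best known from the lung. Cxcl9, Cxcl10 and, where it encodes a protein, Cxcl11 are induced by interferons and attract activated T cells and natural killer cells through Cxcr3. JunB is a subunit of the AP-1 transcription factor, a dimer whose usual site is TGANTCA with C or G at the N. Some dimers bind the related TGACGTCA. Any base was allowed at the N in the searches here. NF-kB and the interferon-stimulated response element (ISRE), a site of interferon regulatory factors, are known for their part in inflammatory promoters.

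The sequences below carry the features to which the results refer. The promoters are the 250 bases before the start of the RefSeq transcript (GRCm38.p6, the assembly of mm10), shown for Cxcl1 and Cxcl10, whose TSSs were covered by an aged mJunB peak, and for Cxcl2 and Cxcl3, which share a motif with Cxcl1. Capitals mark matches to NF-kB, to TGANTCA or to the ISRE written as GAAANNGAAA.
Cxcl1 promoter (chr5:90890995-90891244, plus strand): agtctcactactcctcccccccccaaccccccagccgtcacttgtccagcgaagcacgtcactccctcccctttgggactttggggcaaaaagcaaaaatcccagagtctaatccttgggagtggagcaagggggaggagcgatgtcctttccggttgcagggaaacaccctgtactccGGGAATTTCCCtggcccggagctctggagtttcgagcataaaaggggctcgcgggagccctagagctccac
Cxcl2 promoter (chr5:90903649-90903898, plus strand): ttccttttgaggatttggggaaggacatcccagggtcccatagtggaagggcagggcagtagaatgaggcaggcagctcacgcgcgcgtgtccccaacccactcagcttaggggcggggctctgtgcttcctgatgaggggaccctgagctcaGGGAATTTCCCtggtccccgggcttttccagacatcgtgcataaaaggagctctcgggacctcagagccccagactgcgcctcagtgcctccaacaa
Cxcl3 promoter (chr5:90785851-90786100, plus strand): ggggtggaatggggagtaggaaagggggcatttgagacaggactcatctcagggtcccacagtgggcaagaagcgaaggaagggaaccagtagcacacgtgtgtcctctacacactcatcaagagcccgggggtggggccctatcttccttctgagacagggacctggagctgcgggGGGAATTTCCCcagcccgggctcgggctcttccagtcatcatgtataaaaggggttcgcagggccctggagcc
Cxcl10 promoter (chr5:92348890-92349139, minus strand): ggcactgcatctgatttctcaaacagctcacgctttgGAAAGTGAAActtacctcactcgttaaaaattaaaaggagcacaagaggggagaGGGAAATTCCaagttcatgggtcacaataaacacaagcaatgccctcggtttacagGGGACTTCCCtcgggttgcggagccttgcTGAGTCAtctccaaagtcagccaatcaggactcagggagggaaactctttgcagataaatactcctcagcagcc

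The following windows of 101 bases are centred on summits of mJunB peaks in mm10. They are the region downstream of Cxcl2, whose capitals mark TGANTCA, and the regions upstream of Cxcl2 and Cxcl11 that had a peak in all 4 JunB libraries and hold none of the searched motifs at the summit.
Cxcl2 downstream region, summit of young replicate 2 (chr5:90908864-90908964, plus strand): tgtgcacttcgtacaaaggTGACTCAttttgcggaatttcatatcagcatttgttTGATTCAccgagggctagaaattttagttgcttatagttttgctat
Cxcl2 upstream region, summit of young replicate 3 (chr5:90900628-90900728, plus strand): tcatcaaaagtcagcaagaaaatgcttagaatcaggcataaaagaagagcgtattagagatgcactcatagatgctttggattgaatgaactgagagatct
Cxcl11 upstream region, summit of young replicate 1 (chr5:92368779-92368879, plus strand): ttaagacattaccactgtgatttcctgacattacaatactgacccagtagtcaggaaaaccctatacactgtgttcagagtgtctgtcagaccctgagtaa
Cxcl11 upstream region, summit of the aged library (chr5:92369006-92369106, plus strand): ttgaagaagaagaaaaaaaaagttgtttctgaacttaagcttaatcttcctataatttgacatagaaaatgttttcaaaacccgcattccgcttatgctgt

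All genes of the first cluster are on the plus strand. Their TSSs span 144.5 kb, from Cxcl5 (90759360-90761624) over Ppbp (90768518-90770063), Pf4 (90772435-90773383), Cxcl3 (90786103-90789600) and Cxcl15 (90794534-90803067) to Cxcl1 (90891241-90893115) and Cxcl2 (90903871-90905938). The second cluster lies 1424.2 kb farther along, on the minus strand, and its TSSs span 37.4 kb, with Cxcl9 at 92321347-92328079, Cxcl10 at 92346638-92348889 and Cxcl11 at 92359544-92365485. GENCODE M21 classes Cxcl11 as a polymorphic pseudogene and the other members as protein-coding. Young replicate 1 had 5 mJunB peaks in the first cluster and 1 in the second. Young replicate 2 had 2 and 1, and young replicate 3 had 1 and 1. The aged library had 4 and 2. Over both clusters young replicates 1, 2 and 3 had 6, 3 and 2 peaks (mean 3.67 ± 2.08, SD, n = 3). The aged library had 6, so its count equalled that of young replicate 1 and was above the others. H3K27ac had 10 peaks in the first cluster and 7 in the second.

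**Figure D1:**
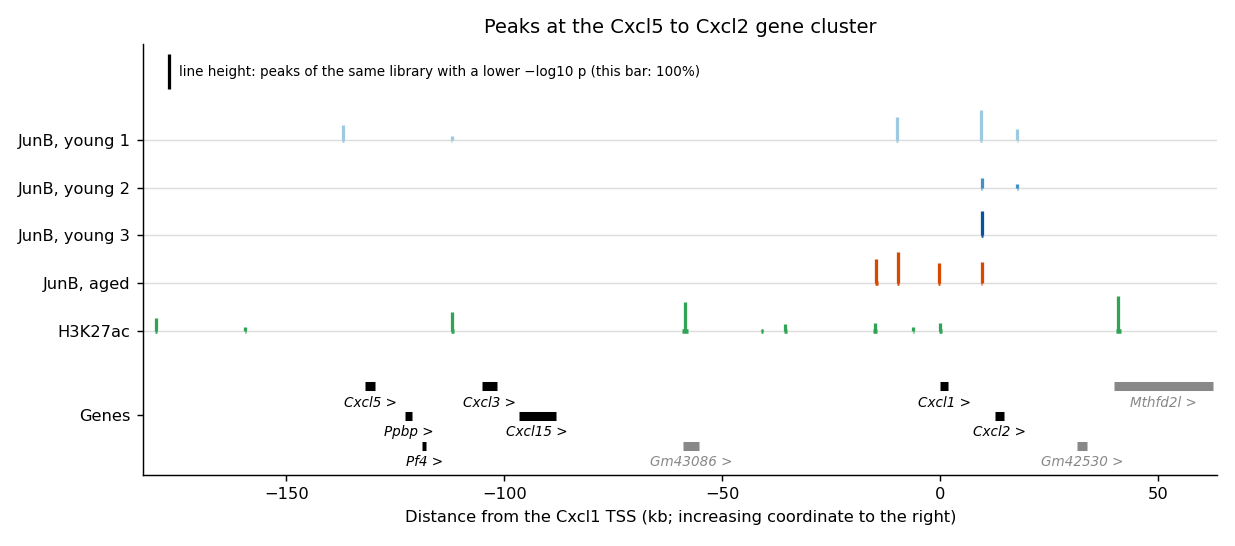
Peaks of the 5 libraries in the first cluster, by distance from the Cxcl1 TSS in kb, with members in black and other genes in grey (> marks the plus strand). The height of a line is the share of peaks in the same library with a lower −log10 p; mJunB peaks were dense around Cxcl1 and Cxcl2, and among the JunB libraries only young replicate 1 had peaks near the 5 genes on the left, where H3K27ac had 1 peak between Pf4 and Cxcl3.

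Cxcl1 and Cxcl2 were the nearest members to most of the mJunB regions. Of the 9 regions, 3 were nearest to Cxcl1 and 2 to Cxcl2, and 1 each was nearest to Cxcl5, Pf4, Cxcl10 and Cxcl11. No region was nearest to Ppbp, Cxcl3, Cxcl15 or Cxcl9.

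The region upstream of Cxcl2 (90900450-90901069, intergenic) was the only one of the first cluster with a peak in all 4 JunB libraries. Its edge lay 2978, 2978 and 2802 bp from the Cxcl2 TSS in young replicates 1, 2 and 3 and 2968 bp in the aged library, and the 4 summits lay within 41 bp of each other. Summit fold enrichments of 9.67, 6.28 and 9.17 in the young libraries (mean 8.37 ± 1.83, SD, n = 3) stood against 5.16 in the aged library. The aged value was below every young one and differed from their mean by more than the SD. Fold enrichment is set against the local background of its own library, and its median over all peaks also differed between lists, from 4.93 in the aged list to 5.20, 7.74 and 8.11 in those of young replicates 1, 2 and 3. The aged −log10 p was 8.04, beside 21.9, 11.7 and 17.9 in young replicates 1, 2 and 3, and by it the peak ranked 1504, 3574 and 1258 in the young lists and 5649 in the aged list. The aged peak was thus below every young one in fold enrichment, −log10 p and rank, but not in its share within the list. It lay above 59.9% of the aged peaks, beside 84.2%, 26.7% and 67.4% for young replicates 1, 2 and 3. The share of a list that ranks below a peak depends on how long the list is and how weak its last peaks are. Rank likewise depends on how many stronger peaks a list holds, so ranks and shares only place a peak within its own list. No H3K27ac peak overlapped the region, and the nearest was 8854 bp away.

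A second region at Cxcl2 (90908833-90909121) lay 4960 bp downstream of the TSS, past the end of the gene, and was present in young replicates 1 and 2 only. The fold enrichment was 4.57 in replicate 1 and 5.93 in replicate 2, and the summits were 19 bp apart. Both peaks were weak within their lists, with a higher −log10 p than 30.1% of the peaks in replicate 1 and 10.5% in replicate 2. The nearest H3K27ac peak was 17237 bp away. These were the only peaks of either cluster with TGANTCA within 50 bp of the summit. The window printed for this region holds TGACTCA and TGATTCA, which lay 28 to 47 bp and 8 to 11 bp from the summits.

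At Cxcl1, the peaks differed more between libraries. A region 9325 bp upstream of the TSS (90881132-90881916) had a peak in the aged library, with a fold enrichment of 6.37 and a −log10 p above 87.4% of the aged peaks, and in young replicate 1, with 5.77 and 63.7%. The 2 peaks met only at their edges, with summits 400 bp apart, and the region was 3033 bp from the nearest H3K27ac peak. The remaining regions at Cxcl1 were found in the aged library alone. The region across the TSS (90890838-90891311) ranked above 57.6% of the aged peaks, and the region 14258 bp upstream (90876306-90876983) above 67.3%. H3K27ac peaks overlapped 359 bp of the former and 460 bp of the latter. The aged summit at the TSS lay 105 bp from the NF-kB match GGGAATTTCC of the Cxcl1 promoter, and no TGANTCA was found in that region. The nearest young peaks to the Cxcl1 TSS were 9207, 9402 and 9374 bp downstream, which are the peaks upstream of Cxcl2.

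The stretch of Cxcl5, Ppbp, Pf4, Cxcl3 and Cxcl15 held no peak of young replicate 2, young replicate 3 or the aged library within 50 kb of a TSS. Young replicate 1 had 2 peaks there. The first lay 4983 bp upstream of Cxcl5 (90753924-90754377), nearest to the TSS of the pseudogene Gm43090 at 3399 bp, with a fold enrichment of 4.98 and a −log10 p above 40.3% of the peaks in its list. The second lay 6159 bp downstream of the Pf4 TSS and 6805 bp upstream of Cxcl3 (90779050-90779298), with a fold enrichment of 3.74. It ranked above 9.28% of its list, with a −log10 p of 4.77, under the lowest value in the lists of young replicates 2 and 3. This weak peak lay wholly inside an H3K27ac peak (90778944-90779678, fold enrichment 4.19), the only H3K27ac peak between Cxcl5 and Cxcl15. For the other JunB libraries the nearest peak to these genes was 69144 to 104318 bp away in young replicate 2, 69166 to 104340 bp in young replicate 3 and 52810 to 81772 bp in the aged library.

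**Figure D2:**
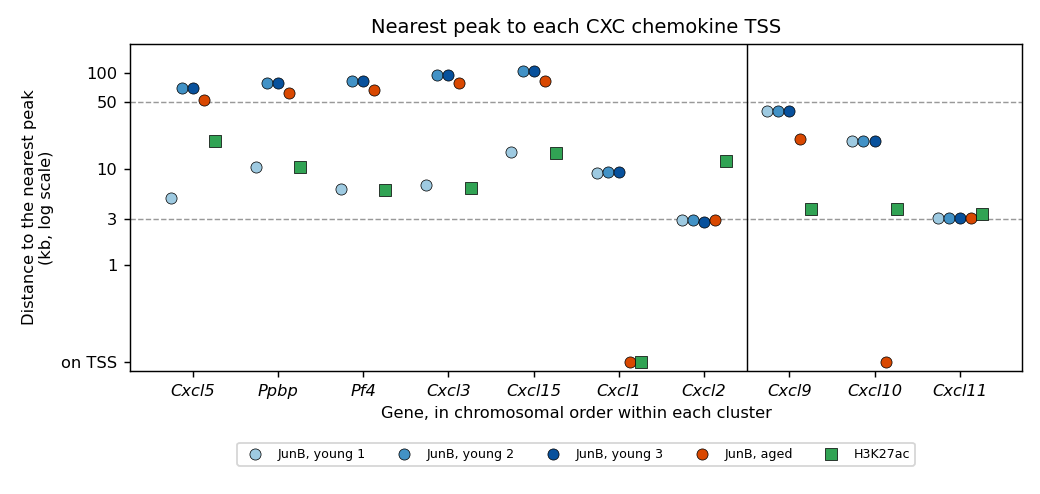
Distance from the TSS of each member to the edge of the nearest peak, in kb on a log scale, with points on the lowest line for peaks that cover the TSS and dashed lines at 3 and 50 kb. The aged library covered the TSSs of Cxcl1 and Cxcl10, and from Cxcl5 to Cxcl15 only young replicate 1 and H3K27ac had a peak within 50 kb.

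Beyond the 50 kb limit, the closest mJunB peak was an aged peak 52810 bp upstream of Cxcl5 (90706181-90706550, fold enrichment 4.67), and the farthest mJunB region inside it was the aged one 14258 bp from Cxcl1. The farthest H3K27ac peak inside was 49736 bp from Cxcl9 and the closest outside 52709 bp from Cxcl5. On the side of each cluster that faces away from the other cluster, a peak of all 4 JunB libraries and H3K27ac followed about as far out. Upstream of Cxcl5 it lay 69131, 69144 and 69166 bp away in the young libraries and 69113 bp away in the aged library, with fold enrichments of 15.7, 9.61, 10.3 and 9.94. Upstream of Cxcl11 it covered the TSS of Nup54, 69488 to 69506 bp from the Cxcl11 TSS. On the sides that face each other, downstream of Cxcl2 and of Cxcl9, no mJunB peak lay between 50 and 100 kb away.

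**Figure D3:**
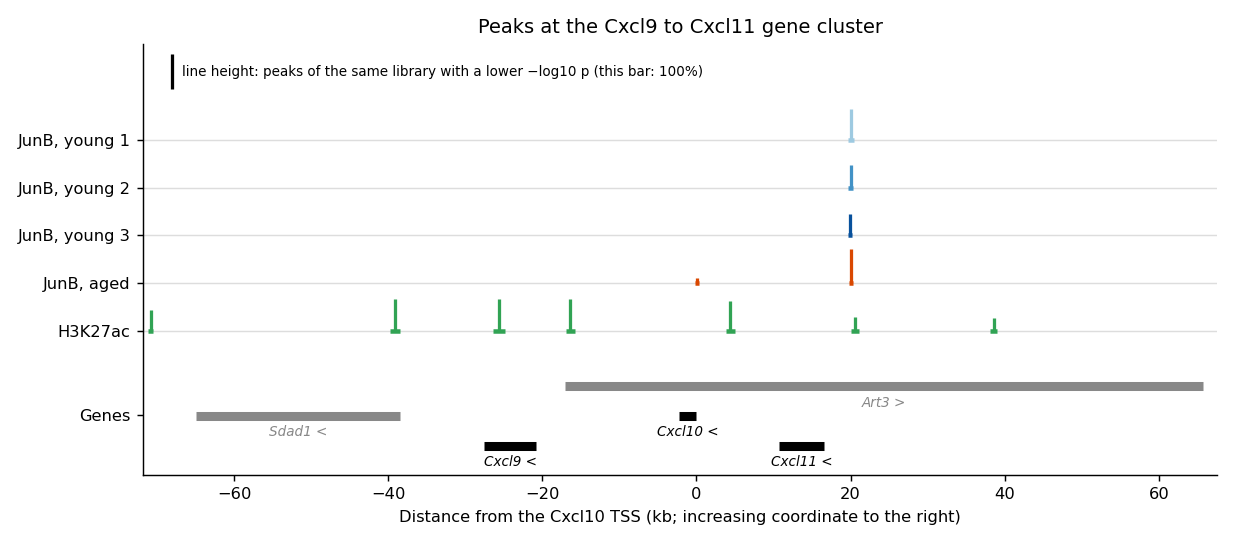
Peaks of the 5 libraries in the second cluster, by distance from the Cxcl10 TSS in kb, drawn as for the first cluster (< marks the minus strand). The peak of all 4 JunB libraries upstream of Cxcl11 overlapped H3K27ac, and the aged peak at the Cxcl10 TSS was low within its library.

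In the interferon-induced cluster, the only region with young peaks lay 3115 bp upstream of Cxcl11 (92368600-92369281), inside an intron of Art3, a gene on the opposite strand that spans Cxcl10 and Cxcl11 from 92331827 to 92414628. All 4 JunB libraries had a peak there. Young replicates 1, 2 and 3 had fold enrichments of 9.55, 8.08 and 8.39 (mean 8.67 ± 0.774, SD, n = 3). The aged value of 10.2 was above each of them and farther than the SD from their mean. The aged −log10 p was 21.8 and those of the young libraries ran from 15.7 in replicate 3 to 23.4 in replicate 1, so on this scale the aged value lay inside the young range. By −log10 p the peak ranked 1373, 1833 and 1584 in the young lists and 674 in the aged list. This differed from the region upstream of Cxcl2, where the aged fold enrichment was the lowest of the 4 libraries. With 1 aged library, a difference by age was not tested at either region. The summits fell at 92368829 and 92368833 in young replicates 1 and 3 and at 92369077 and 92369056 in young replicate 2 and the aged library, a range of 248 bp that did not follow age. An H3K27ac peak (92368891-92370015, fold enrichment 3.43) overlapped 391 bp of the region.

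At Cxcl10, an aged peak of 522 bp (92348750-92349271) covered the TSS and the whole promoter printed above. It was the weakest aged peak of both clusters, with a fold enrichment of 3.99 and a −log10 p of 4.98, above 15.7% of the aged list. That −log10 p was below the lowest in the lists of young replicates 2 and 3, while the list of young replicate 1 reached lower and held no peak there. Its summit lay 56 bp from the TGAGTCA printed in capitals, 83 and 139 bp from the NF-kB matches and 193 bp from the ISRE match. No H3K27ac peak overlapped it, and the nearest began 3837 bp upstream of the TSS (92352726-92353867, fold enrichment 4.69). The young peaks nearest to the Cxcl10 TSS were those at Cxcl11, 19711 to 19719 bp upstream. Cxcl9 had no mJunB peak nearer than the aged Cxcl10 peak, 20671 bp from its TSS.

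**Figure D4:**
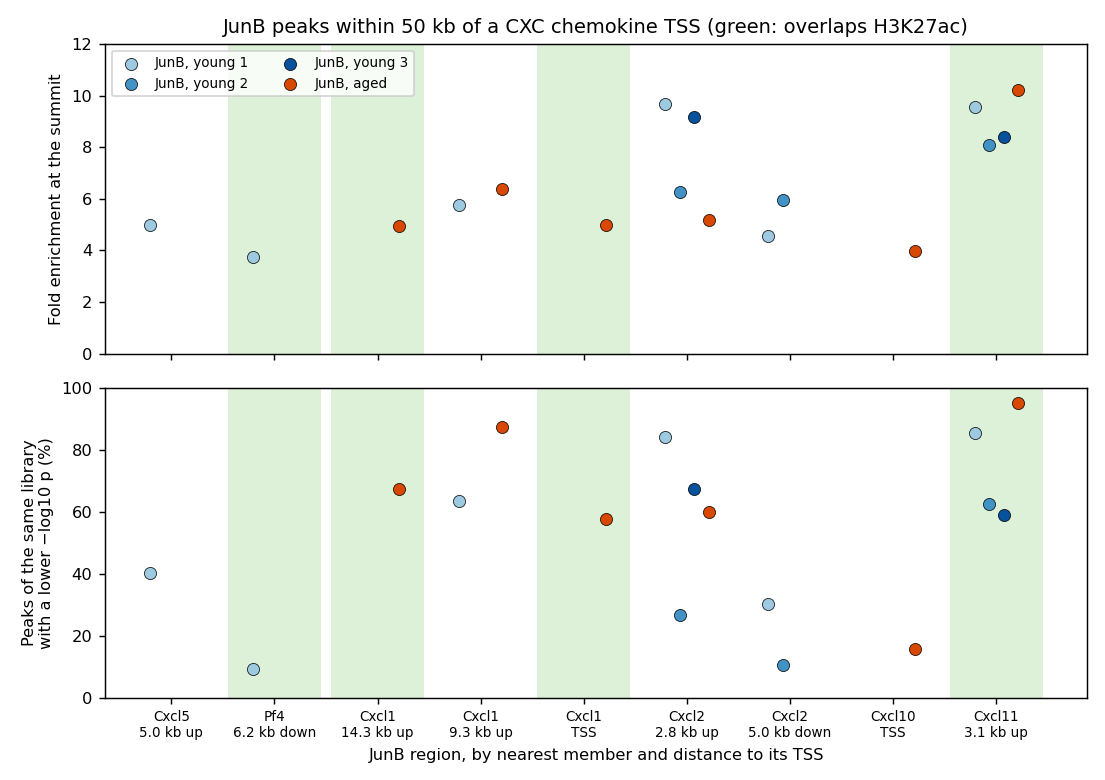
Fold enrichment at the summit and share of peaks in the same library with a lower −log10 p for each of the 17 mJunB peaks, by region in chromosomal order, with green for regions that overlap H3K27ac. The lists differ in length, so the lower panel places a peak within its own list only. The regions upstream of Cxcl2 and Cxcl11 had points of all 4 libraries, with the aged fold enrichment the lowest at the former (5.16) and the highest at the latter (10.2).

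Promoter binding was counted as a peak within 3 kb of a TSS. In each young library 1 of the 10 members, Cxcl2, had such a peak, beside 11%, 7.71% and 5.89% of all 22020 genes in young replicates 1, 2 and 3. In the aged library 3 did, Cxcl1, Cxcl2 and Cxcl10, beside 23.8% of all genes. In the H3K27ac library 1 did, Cxcl1, beside 49.7% of all genes. The Cxcl2 peaks were just inside this limit, at 2802 to 2978 bp, and the Cxcl11 peaks just outside it, at 3115 to 3138 bp. With the limit at 1 kb no young library had a member with a promoter peak and the aged library had 2.

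Within 50 kb, 10 members had a peak in young replicate 1, 5 in young replicates 2 and 3 each and 5 in the aged library, beside 40.3%, 27.4%, 23.3% and 58.3% of all genes. H3K27ac had a peak within 50 kb of 10 members, beside 76.4% of all genes. Neighbouring members share their peaks, so these counts are not independent of each other. Cxcl1 and Cxcl2 each had 5 merged mJunB regions within 50 kb, and 94.7% of all genes had fewer. The other 8 members each had 2, and 62.2% of all genes had fewer. The median was 2 for the members and 1 for all genes.

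**Figure D5:**
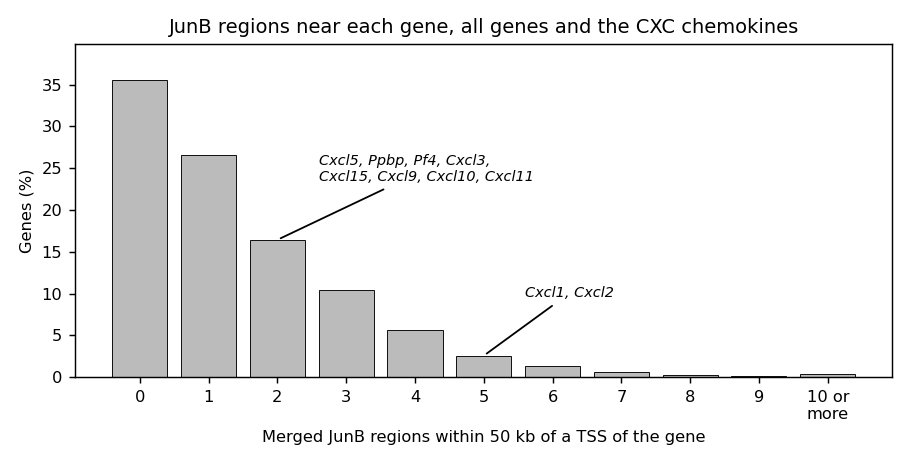
Share of all 22020 genes (%) by the number of merged mJunB regions within 50 kb of a TSS, with the members named at their number. Cxcl1 and Cxcl2 stood at 5 regions, the number of 2.58% of genes, and the other members at 2, the number of 16.4% of genes.

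Of the 9 regions, 2 had a peak in all 4 JunB libraries, beside 13.1% of all mJunB regions. In the aged library alone there were 3, beside 45%, and in young libraries alone 3, beside 25.8%. The region upstream of Cxcl1 shared by the aged library and young replicate 1 was the only one in the aged and some young libraries, beside 16.1% of all regions. With 9 regions these shares have wide errors: for 3 of 9 the exact (Clopper-Pearson) 95% binomial interval ran from 7.49% to 70.1%, and it covers counting error only. Of the 3 young regions, 2 rested on young replicate 1, those at Cxcl5 and Pf4. The 3 aged regions were not among the strongest peaks of their list. They ranked 4622, 5983 and 11827 by −log10 p among the aged peaks, at 14258 bp upstream of Cxcl1, at the Cxcl1 TSS and at the Cxcl10 TSS. When every list was cut to its 3863 strongest peaks, the length of the shortest, none of the 3 was left, and neither was any of the 3 young ones. The regions upstream of Cxcl1 (9325 bp), Cxcl2 and Cxcl11 remained. The Cxcl2 region lost its aged peak and was then found in young libraries alone, so the Cxcl11 region was the only one left with peaks in all 4 libraries. The aged library kept 2 peaks, those upstream of Cxcl1 and Cxcl11.

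H3K27ac overlapped 4 of the 9 regions, those at Pf4, 14258 bp upstream of Cxcl1, at the Cxcl1 TSS and upstream of Cxcl11. This was 44.4% (exact 95% interval 13.7% to 78.8%), beside 42.6% of all mJunB regions. Of the regions in all 4 JunB libraries the one at Cxcl11 overlapped H3K27ac and the one at Cxcl2 did not, beside 69.9% of the 2468 such regions in the genome. Seen from the mark, 4 of the 17 H3K27ac peaks of the clusters overlapped a mJunB peak, beside 20.1% of all H3K27ac peaks.

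The H3K27ac peaks of the clusters varied in strength from fold enrichments of 2.65, at the peak 14476 bp upstream of Cxcl1, to 6.10, at the peak 332 bp from the TSS of Mthfd2l, a gene next to Cxcl2. The Mthfd2l peak (90931612-90932637) ranked above 97.6% of the H3K27ac list and had no mJunB peak. The peak across the Cxcl1 TSS (90890953-90891596) had a fold enrichment of 3.45, beside a median of 3.65 over the list. By −log10 p it ranked above 23.7% of the list, so on that scale it was among the weaker ones. In the second cluster, strong peaks lay at the TSS of Sdad1 (92309146-92310372, above 91.0% of the list) and 115 bp from that of Art3 (92331956-92333085, 88.7%). Close to members, a peak lay 3996 bp downstream of the Cxcl9 TSS (92322491-92324082, 90.1%), and the Art3 peak was 3877 bp upstream of that TSS. The peak between Cxcl10 and Cxcl11 (92352726-92353867) ranked above 84.3%. None of these peaks overlapped a mJunB peak. The H3K27ac peak that all 4 JunB libraries shared, upstream of Cxcl11, had a −log10 p of 9.69. The 6 others of this cluster ranged from 9.16, at a peak 21524 bp upstream of Cxcl11, to 23.9, at Sdad1. The TSSs of Cxcl9, Cxcl10 and Cxcl11 themselves carried no H3K27ac peak, although peaks lay near each, at 3877, 3837 and 3406 bp.

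Motifs were searched on both strands. TGANTCA lay within 50 bp of the summit in 2 of the 17 mJunB peaks, both in the region downstream of Cxcl2. Over all peaks of a list, 7.19%, 8.10% and 9.55% of the young summits (replicates 1, 2 and 3), 4.92% of the aged summits and 2.95% of the H3K27ac summits had it. Anywhere inside the region, TGANTCA was found in 6 of 9 regions, beside 31.6% of all mJunB regions. The 9 regions were also wider, with a median of 522 bp against 342 bp, and the part of width in this count was not tested. The regions without it were those at Pf4, 9325 bp upstream of Cxcl1 and at the Cxcl1 TSS. In the region 14258 bp upstream of Cxcl1 the only match was TGATTCA, which has neither C nor G at the N. In the region upstream of Cxcl2, TGAGTCA lay 185 to 226 bp from the summits, and in that upstream of Cxcl11 matches lay at both ends, 201 to 461 bp from them. TGACGTCA was in none of the 9 regions, beside 1.78% of all. An NF-kB match was found in 2 of 9 regions, those over the TSSs of Cxcl1 and Cxcl10, beside 6.48%, and an ISRE match in 1, at Cxcl10, beside 5.16%.

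The promoter table of RefSeq, with 250 bases before and 50 after the start, matched 8 members, and Cxcl5 and Cxcl11 were not matched. NF-kB matches were found in 4 of the 8, Cxcl1, Cxcl2, Cxcl3 and Cxcl10, beside 4.51% of 32851 promoters. In Cxcl1, Cxcl2 and Cxcl3 the match was the same, GGGAATTTCC, starting 71, 97 and 73 bp before the start, and the overlapping GGAATTTCCC matched as well. These genes lie in the first cluster and share the site, so their matches cannot be taken as independent of each other. The Cxcl10 promoter had GGGAAATTCC 159 bp and GGGACTTCCC 103 bp before the start, GAAAGTGAAA at 213 bp and TGAGTCA at 74 bp. The ISRE was in no other member, beside 3.44% of all promoters. TGANTCA was in 3 of the 8, Ppbp, Cxcl9 and Cxcl10, beside 7.81%, and TGACGTCA in none, beside 1.79%. The match was TGAATCA in Ppbp, TGACTCA in Cxcl9 and TGAGTCA in Cxcl10. Of the 4 promoters with an NF-kB match, those of Cxcl1 and Cxcl10 were covered by an aged peak and those of Cxcl2 and Cxcl3 by no mJunB peak. For Cxcl3, the nearest mJunB peak was that of young replicate 1 at 6805 bp.

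Among 13 other CXC chemokines and CXC receptors, none had a promoter peak in a young library, and in the aged library 2 did, Cxcl16, a membrane-bound chemokine, and Ackr3, a scavenging receptor of Cxcl12. H3K27ac peaks were at the promoters of 4, Cxcl12, Cxcl16, Cxcr5 and Ackr3. Over all genes, the share with a promoter peak was 11%, 7.71% and 5.89% in young replicates 1, 2 and 3. It was 23.8% in the aged library and 49.7% in the H3K27ac library. Within 50 kb, 7 had an aged peak, while 4, 4 and 3 had one in young replicates 1, 2 and 3. These counts were near the shares of all genes given above, 58.3% for the aged list and 40.3%, 27.4% and 23.3% for the young ones. Cxcr2 and Cxcr3, receptors of some of the members, had no peak within 50 kb in any of the 5 libraries. Of all genes, 35.6% had no merged mJunB region within 50 kb, and 76.4% had an H3K27ac peak there. Cxcr4, the receptor of Cxcl12 and a surface marker of MuSCs, had 1 aged peak within 50 kb and no young one.

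The cell identity of the libraries was checked by marker lists. Of 10 MuSC markers, 6 had an H3K27ac peak within 3 kb of a TSS, among them Myod1, Itga7 and Cdh15, but Pax7 and Myf5 did not. This was near the 49.7% of all genes with such a peak, so the list does not set the library apart as MuSCs. The same count was 1 of 6 for macrophage or other leukocyte markers, 0 of 4 for neutrophil markers, 1 of 5 for platelet or megakaryocyte markers, 2 of 5 for endothelial markers and 3 of 5 for fibro-adipogenic markers. Aged mJunB peaks were at the promoters of 5 MuSC, 1 leukocyte, 0 neutrophil, 1 platelet, 1 endothelial and 3 fibro-adipogenic markers, beside 23.8% of all genes. In the young libraries the count was 1 to 3 for MuSC, 1 for leukocyte, 0 for neutrophil, 1 for platelet, 0 to 1 for endothelial and 0 to 1 for fibro-adipogenic markers. The share of all genes was lower there too, at 11%, 7.71% and 5.89% in young replicates 1, 2 and 3. Pf4 and Ppbp are themselves in the platelet list, whose promoter peaks were all at Itga2b. The part of other cell types in the peaks was not tested.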

How the data were processed

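CUT&RUN-seq was done on MuSCs with antibodies to JunB (3 young libraries and 1 aged) and H3K27ac (1 library). After trimming and quality filtering by the authors, reads were aligned with Bowtie2 to mm10, redundant reads were dropped, and MACS2 called the peaks of each library separately. Versions and a control library are not given in the sources used here. The deposited lists give for each peak the fold enrichment at the summit (a ratio to the local background of that library) and the −log10 p and −log10 q, which are relative to that library and served only for ranks and filters. Peaks carry no counts, so the depth is unknown.

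JunB peaks that overlapped or touched were merged on chromosomes 1 to 19, X and Y, and overlap with H3K27ac meant at least 1 bp. These chromosomes held 39492 of the H3K27ac peaks, and peaks on other contigs were left out of genome-wide shares. Distances ran from the nearest edge of a peak to any TSS in GENCODE M21 (GRCm38). Python 3.11.15, numpy 2.4.6, scipy 1.17.1 and matplotlib 3.10.9 were used. On simulated data all 500 of 500 overlaps matched those of bedtools 2.31.1, and 2000 of 2000 distances and 1000 of 1000 planted motifs were recovered. No test between ages was made. The 10 members, the marker lists and the motifs were chosen with earlier results of these data known. All members were named, as were genes whose TSS was the nearest to a mJunB region and the other CXC genes. Art3, Mthfd2l, Sdad1 and Nup54 were named after their values were seen. Alternatives covered the window, the thresholds, equal numbers of peaks, merging, overlap, TSS choice, distance rule, promoter width, motif window and each young library left out.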

Additional observations from a re-analysis of the deposited data

How the results depend on the processing

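Of 100 values of 10 results under the alternatives, 80 stayed within 1.5 times the reported count (or 1 SD of the young mean) and 20 moved. Most of the moves came from using fewer peaks. With the 3863 strongest peaks of each list, the 9 regions became 3, those in all 4 libraries 1 in place of 2, those in the aged library alone 0 in place of 3, those in young libraries alone 1 in place of 3, those overlapping H3K27ac 1 in place of 4, the aged peaks 2 in place of 6 and the members with an aged promoter peak 0 in place of 3. The 1 in young libraries alone was the region upstream of Cxcl2, which lost its aged peak, and none of the original 3. With the 2000 strongest peaks these values were 3, 1, 1, 1, 1, 2 and 0, and the 1 in the aged library alone was the region 9325 bp upstream of Cxcl1, without its young peak. A window of 100 kb gave 12 regions in place of 9. Those in all 4 libraries rose to 4, beside 13.1% of all mJunB regions, and those overlapping H3K27ac to 7, beside 42.6%. The added regions lay upstream of Cxcl5 and at the Nup54 TSS, and each overlapped H3K27ac. Measured from the midpoint of a peak, or with promoters of 1 kb, 0 members in place of 1 had a young promoter peak. Within 100 bp of the summit 4 peaks had TGANTCA in place of 2. Leaving out each young library in turn gave 1 to 3 regions in young libraries alone, the 1 being without young replicate 1, and 7 to 9 regions in all. At a −log10 p of at least 5.33, which every JunB list reached, 7 regions were left, 2 of them in the aged library alone. No paired analysis was possible because the aged and H3K27ac groups hold 1 library each and no test was made. Depth could not be assessed.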
